A study of Mus musculus with 3 samples.

Results

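The genes described here are 5 matrix metalloproteinase (MMP) genes: the gelatinases *Mmp2* and *Mmp9*, stromelysin-3 (*Mmp11*), and the membrane-type enzymes *Mmp14* and *Mmp15*. They were taken by name from the 84 extracellular matrix (ECM) genes whose positions and strands in the mouse build mm9 came with the study. The rule uses names and positions and no measured value, although earlier results of these data were known when the genes were chosen. H3K27ac, the acetylation of histone H3 at lysine 27 that marks active promoters and enhancers, was mapped by ChIP-seq in tibialis anterior (TA) muscle of C57/BL6 mice aged 2, 10, and 20 months with the antibody Abcam ab4729. Each age had 1 library, so no difference between ages could be tested and no p-value is given. The number of mice behind a library is not known here. The tissue label and the methods name TA muscle tissue as the source of the chromatin, whereas the extraction protocol in the labels speaks of activated satellite cells. The values are described here as those of whole muscle.

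MMPs are zinc-dependent endopeptidases that cut the proteins of the matrix around cells. MMP2 and MMP9 cleave denatured collagen (gelatin) and the type IV collagen of basement membranes, and in muscle both are known from injury and regeneration, where infiltrating leukocytes are a main source of MMP9. MMP14 and MMP15 are anchored in the plasma membrane, and MMP14 together with TIMP2 activates the proenzyme of MMP2 at the cell surface, whereas MMP11 is secreted in active form after cleavage by furin. The tissue inhibitors (TIMPs) block MMPs, and the related ADAMTS proteases cut procollagens and proteoglycans.

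Each peak was assigned to the nearest transcription start site (TSS) of the 84 genes, if the edge of the peak lay at most 100 kb away. Peaks within 2.5 kb were called promoter peaks and peaks beyond that distal peaks. Assignment by distance does not show that a region acts on the gene. Overlapping peaks of the 3 ages were merged into regions, and 59 regions belonged to the 5 genes: 2 to *Mmp2*, 15 to *Mmp9*, 20 to *Mmp11*, 11 to *Mmp14*, and 11 to *Mmp15*. Summit coverage, the number of fragments over the summit of a peak, is given below as a multiple of the mean coverage of the genome in the same library, and called the level.

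In mm9, *Mmp2* lies on chromosome 8 from 95351196 to 95377320 on the plus strand and *Mmp15* on the same chromosome from 97876196 to 97898193, also on the plus strand. *Mmp9* lies on chromosome 2 from 164773719 to 164781350 on the plus strand. *Mmp11* lies on chromosome 10 from 75385967 to 75395247 on the minus strand. *Mmp14* lies on chromosome 14 from 55050435 to 55061293 on the plus strand. In the gene order of RefSeq GRCm38.p6, the nearest protein-coding neighbours were *Irx6* and *Lpcat2* for *Mmp2*, *Zfp335* and *Slc12a5* for *Mmp9*, *Smarcb1* and *Chchd10* for *Mmp11*, *Mrpl52* and *Lrp10* for *Mmp14*, and *Usb1* and *Cfap20* for *Mmp15*. Whether a distal region sits at the start of one of these neighbours was not tested, because no mm9 positions of them were used here.

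The upstream sequences of the 3 genes that had a promoter peak in more than 1 library are shown first, because acetylation next to these start sites is the promoter signal described below. Each is the 250 bases before the start in RefSeq GRCm38.p6, 5′ to 3′ on the strand of the gene, and capitals mark matches to the motifs searched. The coordinates are chr10:75932503-75932752 (minus strand) for *Mmp11*, chr14:54431348-54431597 (plus strand) for *Mmp14*, and chr8:95352046-95352295 (plus strand) for *Mmp15*.
Mmp11: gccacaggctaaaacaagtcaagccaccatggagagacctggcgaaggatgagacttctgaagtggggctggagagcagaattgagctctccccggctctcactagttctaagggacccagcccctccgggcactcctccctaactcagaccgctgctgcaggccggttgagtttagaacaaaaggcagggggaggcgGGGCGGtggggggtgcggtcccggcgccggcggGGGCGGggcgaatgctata
Mmp14: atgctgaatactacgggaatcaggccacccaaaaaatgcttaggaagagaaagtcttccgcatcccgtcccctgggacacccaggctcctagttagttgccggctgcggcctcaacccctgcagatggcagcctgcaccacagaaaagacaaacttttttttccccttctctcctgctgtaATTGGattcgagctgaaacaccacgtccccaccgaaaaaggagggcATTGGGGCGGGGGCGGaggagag
Mmp15: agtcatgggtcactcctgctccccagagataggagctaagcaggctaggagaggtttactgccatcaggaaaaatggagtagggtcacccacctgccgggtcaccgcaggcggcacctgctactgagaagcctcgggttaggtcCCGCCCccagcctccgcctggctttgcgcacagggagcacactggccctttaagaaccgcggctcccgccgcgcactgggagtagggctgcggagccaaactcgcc

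Motifs known from promoters were searched on both strands. GGGCGG, a GC box, was in 32.7% of the 32851 mouse sequences of this kind. The CCAAT box was in 33.8%, the TATA box TATAAA in 12.4%, and TGANTCA, a site of the AP-1 family of Fos and Jun, in 6.75%. *Mmp11* held GGGCGG 52 and 19 bases before the start. *Mmp14* held it 19 and 13 bases before the start, and CCAAT on the opposite strand, as ATTGG, 69 and 23 bases before the start. The nearer ATTGG shares 1 base with a GGGCGG. *Mmp15* held 1 GC box on the opposite strand, as CCGCCC, 106 bases before the start. Neither TATAAA nor the site TGANTCA was in these 3 windows. The G and C content was 63.2% for *Mmp11*, 55.2% for *Mmp14*, and 63.6% for *Mmp15*, with a median of 52.4% over all sequences. The ratio of observed to expected CpG was 0.572, 0.527, and 0.554 in the same order, with a median of 0.374 over all sequences. A match to these letters is a description of the sequence and shows no binding. *Mmp2* and *Mmp9* are named only.

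The libraries differed as a whole, and every value below has to be read against that. The lists of the 2-, 10-, and 20-month muscles held 17884, 35221, and 44752 peaks. Computed from the lowest background in each list, the fragment length, and the genome size preset in MACS2, the depths were about 15933000, 18889000, and 26302000 mapped reads. The background under a peak equalled the genome mean for 78.3% of all peaks in the youngest library, but for 2.87% and 4.89% in the older ones. The peaks of the 5 genes followed this, with 17 of 22 at the genome mean in the youngest library against 0 of 36 and 2 of 53 in the older ones. The median background under the peaks of the 5 genes was 1.00, 3.56, and 3.58 times the genome mean. By these medians, a peak of the older libraries was called against a higher local background than one of the youngest. Whether a control library entered the peak calling at some ages and not at others is not known here, and if so the lists and their q values are not comparable, which was not tested. In whole muscle, fewer cells of a type and less acetylation per cell cannot be told apart.

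The 5 genes had more distal H3K27ac peaks in the older muscles. Their distal peaks numbered 19, 34, and 46 in the 2-, 10-, and 20-month libraries, and the DNA under all their peaks came to 8.55, 17.8, and 22.9 kb. *Mmp9*, *Mmp11*, *Mmp14*, and *Mmp15* each had more distal peaks at 20 than at 2 months. Among all 84 ECM genes, 67.9% did so, and 4 of 5 is close to that. From 2 to 10 months all 5 genes had more distal peaks, as did 57.1% of the 84, and from 10 to 20 months 4 of 5, as did 56% of the 84. Of all distal ECM peaks, the 5 genes held 9.79% in the 2-month list (exact 95% interval of counting error 6.0 to 14.9), 9.77% in the 10-month list (6.86 to 13.4), and 10.0% in the 20-month list (7.45 to 13.2). Their share thus did not move beyond its counting error, while the 20-month list as a whole held 2.5 times as many peaks as the 2-month list and the 5 genes 2.42 times as many distal peaks. When each list was cut to its 17884 peaks of smallest q, the distal peaks of the 5 genes numbered 19, 20, and 22.

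The genes differed in where and how many peaks they had. *Mmp9* had 8, 12, and 13 distal peaks at 2, 10, and 20 months. *Mmp11* had 4, 9, and 16, the largest number among the 5 genes at 20 months. *Mmp14* had 5, 7, and 9. *Mmp15* had 2, 5, and 8, and *Mmp2* had 0, 1, and 0. With lists of equal length the counts were 8, 6, and 8 for *Mmp9*, 4, 6, and 4 for *Mmp11*, 5, 5, and 5 for *Mmp14*, and 2, 3, and 5 for *Mmp15*, so *Mmp15* was the one gene with more at 20 than at 2 months. With age in the same order, a distal peak was present for 4, 5, and 4 of the 5 genes, where the shares of the 84 ECM genes were 48.8%, 67.9%, and 75%. The median over the 5 genes was 4, 7, and 9 distal peaks, and over the 84 genes 0, 2.5, and 3.

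**Figure D1:**
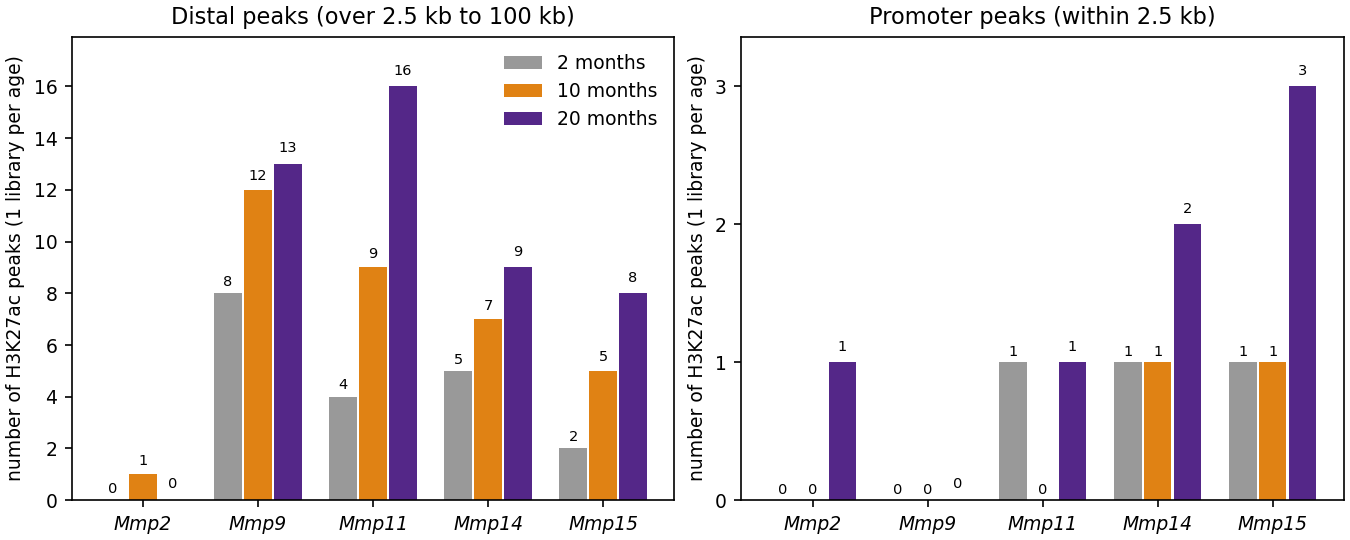
Number of distal and promoter H3K27ac peaks (vertical axis) of each of the 5 MMP genes at 2, 10, and 20 months, with 1 library per age and no error bars. *Mmp11* goes from 4 to 16 distal peaks, and *Mmp2* has at most 1 at any age.

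The positions around the genes were uneven. Nearly all distal peaks of *Mmp9* lay upstream, 7 of 8, 11 of 12, and 12 of 13 in order of age, and none lay within 23 kb of its start. *Mmp9* spans 7632 bp in the positions used here but 15525 bp in RefSeq GRCm38.p6. Which end differs was not tested, and its distances hold for the start used here. The distal peaks of *Mmp11* lay mostly beyond its 3′ end, with 4 of 4, 8 of 9, and 11 of 16 downstream of the start. *Mmp14* and *Mmp15* had peaks on both sides at 20 months, 5 upstream and 4 downstream for *Mmp14* and 4 on each side for *Mmp15*. The bodies of the 4 genes other than *Mmp2* held no distal region.

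**Figure D2:**
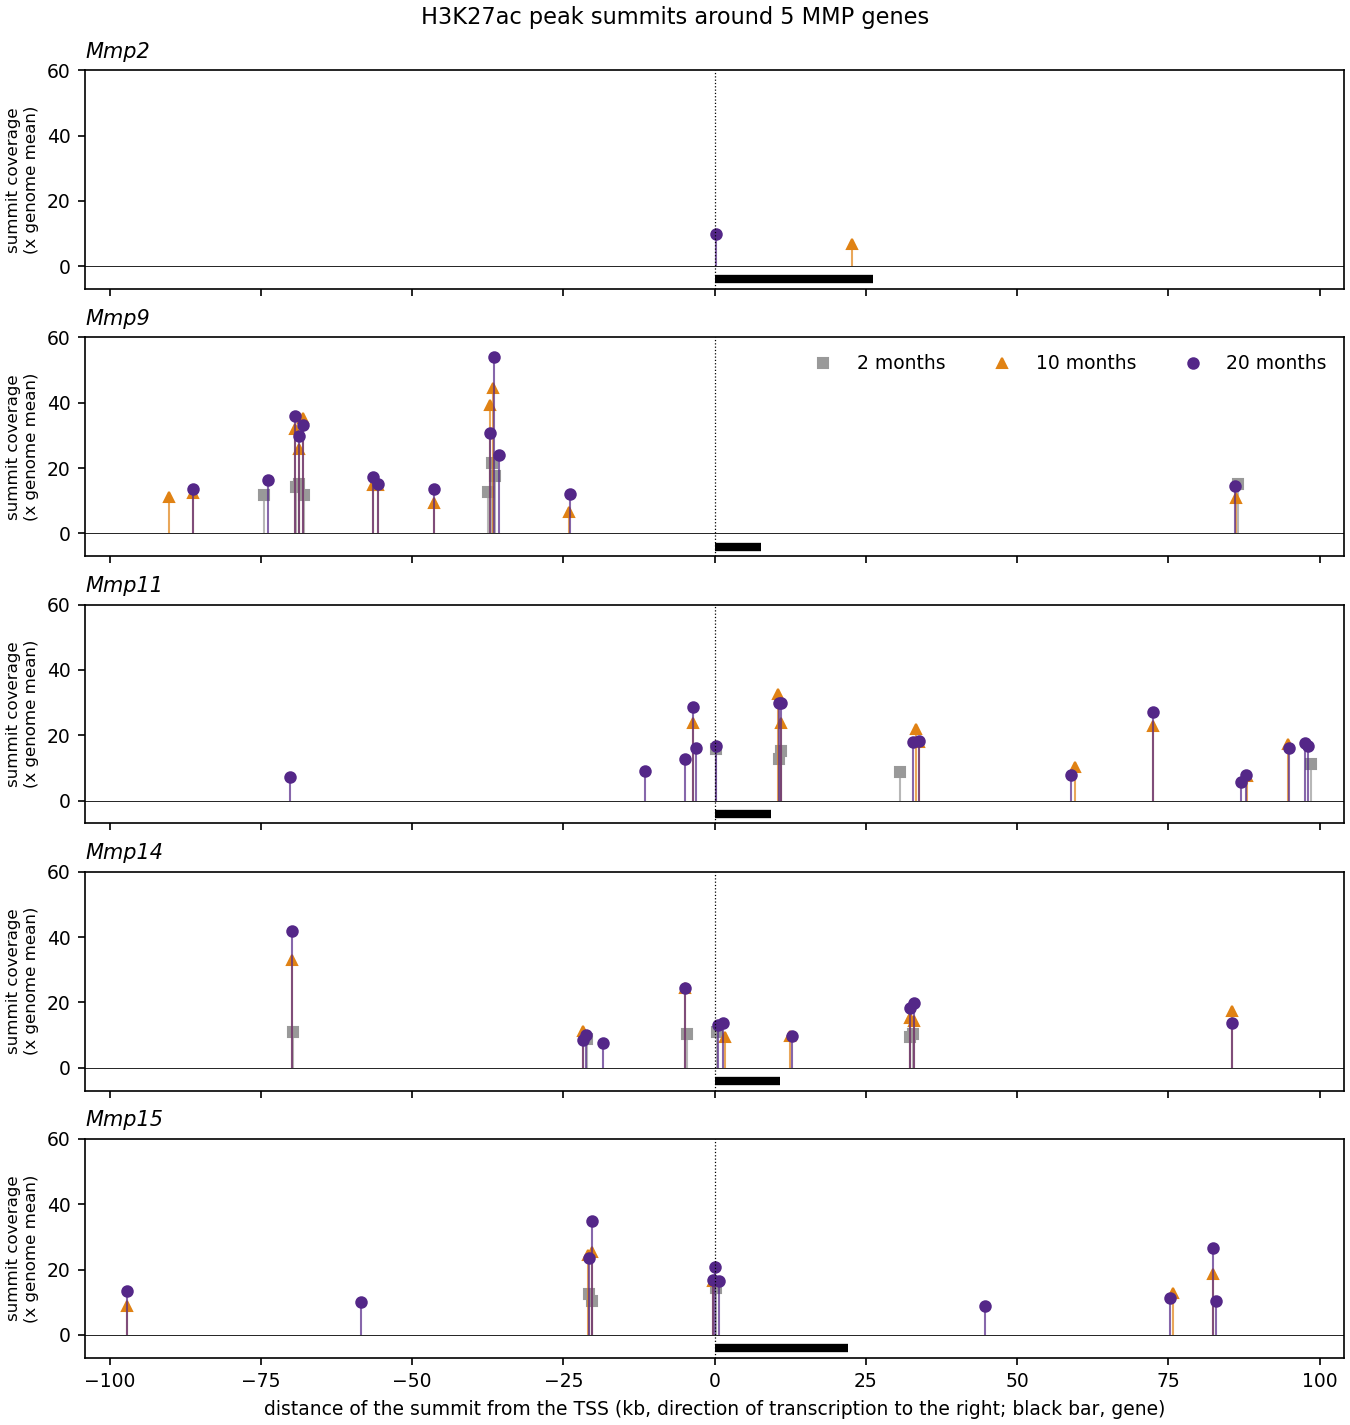
Peak summits within 100 kb of each start site, with the distance from the start in kb on the horizontal axis and summit coverage as a multiple of the genome mean on the vertical axis; marker shape and color give the age and the black bar the gene. The *Mmp9* cluster about 36 kb upstream holds the highest summit at each age, 21.4, 44.6, and 53.9.

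Promoter peaks were called for 3, 2, and 4 of the 5 genes in the 2-, 10-, and 20-month libraries. The shares of the 84 ECM genes with a promoter peak were 26.2%, 34.5%, and 50%. With lists of equal length the counts were 3, 0, and 1 of the 5 genes, so the youngest library, not the oldest, then had the most. The share of the 84 genes is not given here for such lists, and whether other ECM genes did the same was not tested. *Mmp11*, *Mmp14*, and *Mmp15* had a promoter peak in the youngest muscle, *Mmp14* and *Mmp15* had one at 10 months, and the oldest muscle had these 3 and *Mmp2*. *Mmp9* had none at any age, and its nearest peak lay 36.1, 23.6, and 23.7 kb from the start.

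At *Mmp11*, secreted stromelysin-3, the promoter region (chr10:75394929-75395176, mm9) began 71 bp inside the gene. It held 20 reads at the summit at 2 months and 42 at 20 months, which is 15.9 and 16.8 times the genome mean, and no peak at 10 months. The 20-month level was 1.06 times the 2-month level (95% interval of counting error 0.61 to 1.90). The levels of these libraries were nearly equal here. The median of this ratio was 1.58 over the 1327 regions of the genome with peaks at 2 and 20 but not 10 months and 1.68 over the 27 promoter regions of the other ECM genes, both inside the interval, and 2.08 over regions with a peak at every age, above it. At 10 months the nearest peak began 3.37 kb from the start.

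At *Mmp14*, the activator of MMP2, the region at the start (chr14:55050563-55051230) held 14 reads at 2 months and 33 at 20 months, a level of 11.1 and 13.2. The ratio was 1.19 (0.62 to 2.40), and 10 months had no peak there. A region further inside the gene (chr14:55051750-55052169) held 21 reads at 10 months and 34 at 20 months, a level of 9.36 and 13.6. The peak called within 2.5 kb thus lay between 128 and 795 bp in the youngest library. The one called in the 10-month library lay between 1468 and 1734 bp, and the oldest library had a peak overlapping each stretch. Acetylation too low for a peak call cannot be told from its absence here.

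At *Mmp15*, the other membrane-type gene, the 2-month library had 1 wide peak from 41 to 1156 bp inside the gene (chr8:97876216-97877352 for the merged region), with 18 reads and a level of 14.3. The 20-month library had 2 peaks in this stretch, the higher with 52 reads and a level of 20.8, and the ratio was 1.46 (0.84 to 2.64). On the other side of the start, 90 bp upstream (chr8:97875676-97876106), the 10-month library had 37 reads and a level of 16.5, and the 20-month library 42 reads and a level of 16.8. Relative to the start, the 10-month peak ran from −520 to −90 bp and the 20-month peak from −506 to −96 bp, that is over the GC box printed above, as far as both builds place the start alike. The gene spans 21998 bp in both. The 2-month library had no peak upstream.

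**Figure D3:**
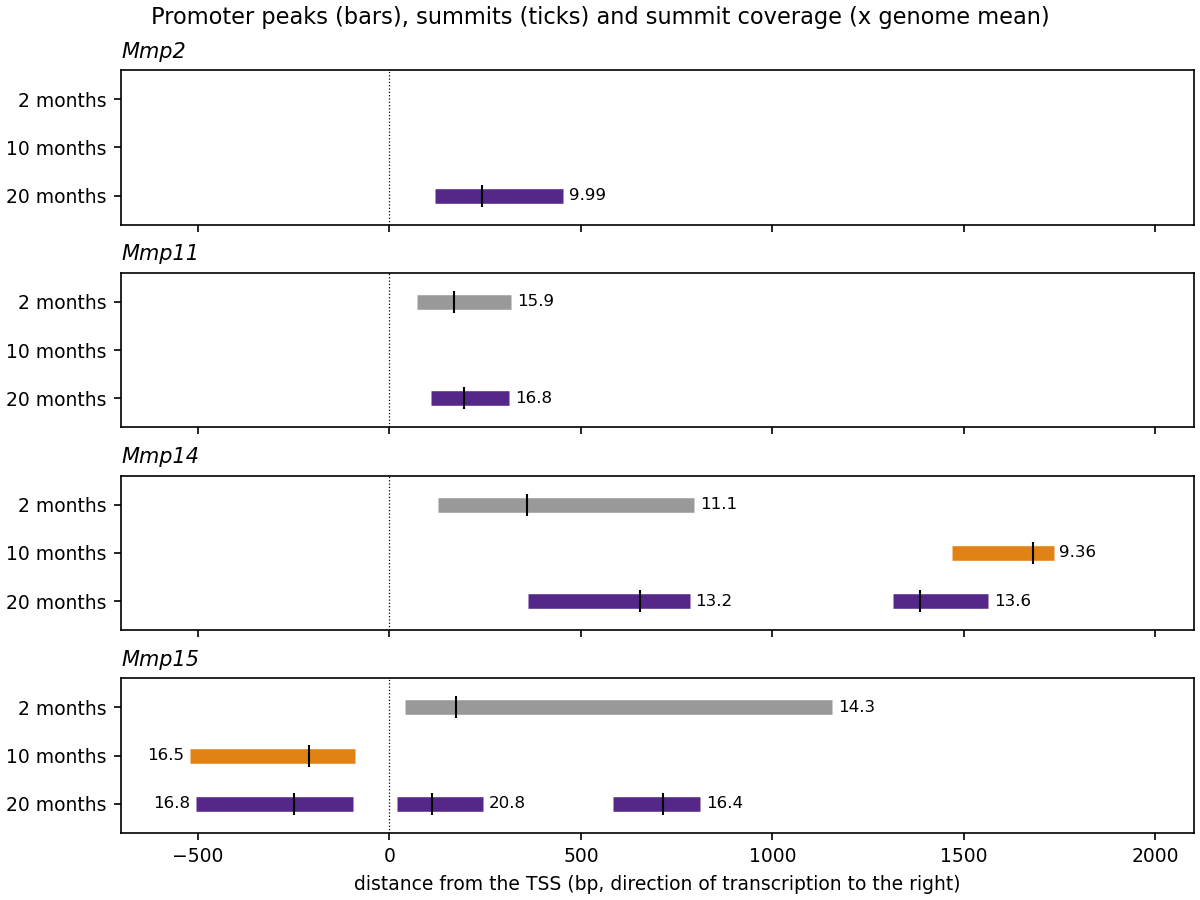
Promoter peaks of *Mmp2*, *Mmp11*, *Mmp14*, and *Mmp15*, with the distance from the start in bp on the horizontal axis and 1 row per age; bars span the peaks, ticks mark the summits, and numbers give summit coverage as a multiple of the genome mean. The upstream side of *Mmp15* is marked at 10 and 20 months (16.5 and 16.8), and *Mmp2* has its promoter peak at 20 months (9.99).

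*Mmp2*, gelatinase A, was the gene with the fewest peaks of the 5. Within 100 kb it had no peak at 2 months, where the nearest peak of the list was 1044.18 kb away. At 10 months it had 1 peak inside the gene 22.7 kb after the start (chr8:95373850-95374109) with 15 reads and a level of 6.69. At 20 months it had 1 peak at the promoter, 119 to 454 bp after the start (chr8:95351315-95351650), with 25 reads and a level of 9.99. Both levels lie below the median of their lists, 15.6 at 10 months and 14.0 at 20 months. Neither peak was left in lists of equal length.

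The distal regions assigned by distance to *Mmp9*, gelatinase B, carried the highest levels of the 5 genes. Whether any of them lies at the start of an upstream neighbour, such as *Zfp335* or *Pcif1*, was not tested. The highest was a region 35.9 kb upstream (chr2:164736882-164737795), with 27, 100, and 135 reads in order of age. Its level was 21.4, 44.6, and 53.9, and it ranked above 96.6%, 99.5%, and 99.8% of the peaks of the 3 lists. The level at 10 months was 2.08 times that at 2 months (1.35 to 3.32) and at 20 months 2.52 times (1.66 to 3.96). The 20-month level was 1.21 times the 10-month level, a difference within counting error.

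A region 37.0 kb upstream, next to that one, had 16, 88, and 77 reads and levels of 12.7, 39.2, and 30.8. Here the 10-month library was the highest, but the ratio of 20 to 10 months of 0.784 was also within counting error. A second cluster lay 67.6 to 69.0 kb upstream, with 3 regions at 11.9, 15.1, and 14.3 at 2 months. They reached 35.2, 25.9, and 32.1 at 10 months and 33.2, 30.0, and 35.9 at 20 months. In all 3 the 2-month library was the lowest.

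The downstream region of *Mmp9*, 85.8 kb after the start (chr2:164859495-164860283), did not follow these. It had 19, 24, and 36 reads, and levels of 15.1, 10.7, and 14.4. The ratio to 2 months was 0.710 at 10 months (0.37 to 1.37) and 0.954 at 20 months (0.53 to 1.76). It was the one region among the 14 of the 5 genes with a peak at every age that was not higher in the older libraries, although scaled to the mapped reads of each library (RPM) its ratios were 1.07 and 1.15. The *Mmp9* region nearest to the start, 23.6 kb upstream (chr2:164749363-164750162), had no 2-month peak, 15 reads at 10 months, and 30 at 20 months, a level of 6.69 and 12.0.

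At *Mmp11* the highest level at 20 months, 30.0, was shared by a pair of adjacent regions just past the 3′ end of the gene. Whether this pair lies at the start of *Smarcb1*, the nearest neighbour on that side, was not tested. The region 10.1 kb after the start (chr10:75384475-75385104) had 16, 73, and 75 reads, and levels of 12.7, 32.6, and 30.0. The levels were 2.57 times (1.48 to 4.72) and 2.36 times (1.36 to 4.34) that of 2 months. The region 10.9 kb after the start had 19, 53, and 75 reads, and levels of 15.1, 23.6, and 30.0. On the upstream side, a region 3.37 kb from the start had no peak at 2 months and levels of 23.6 and 28.8 at 10 and 20 months, and 2 regions beside it, 2.96 and 4.79 kb from the start, had a peak at 20 months alone, with levels of 16.0 and 12.8. The first of these lies just outside the promoter limit.

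Around *Mmp14* the highest region lay 69.0 kb upstream (chr14:54980275-54981409), with 14, 74, and 105 reads and levels of 11.1, 33.0, and 41.9. The level at 20 months was 3.78 times that at 2 months (2.15 to 7.15), the largest ratio among the 5 genes and the one whose interval lay wholly above the genome-wide median of 2.08. The distal region nearest to the start, 4.3 kb upstream (chr14:55045164-55046139), had 13, 55, and 61 reads and levels of 10.3, 24.5, and 24.4. The 2 regions 31.8 and 32.7 kb downstream were lower, with levels of 9.52, 15.2, and 18.4 for the first and 10.3, 14.3, and 20.0 for the second in order of age. A region 21.0 kb upstream had a peak at 2 and 20 months, with levels of 8.72 and 9.99, and none at 10 months.

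Around *Mmp15* the highest region lay 19.6 kb upstream (chr8:97855839-97856631), with 13, 57, and 87 reads and levels of 10.3, 25.4, and 34.7. The level at 20 months was 3.37 times that at 2 months (1.87 to 6.58). Its neighbour 20.5 kb upstream had 16, 55, and 59 reads and levels of 12.7, 24.5, and 23.6. On the downstream side, a region 82.2 kb from the start had no 2-month peak and levels of 18.7 and 26.8 at 10 and 20 months. The upstream pair was acetylated at every age. The upstream distal regions 58.3 and 96.9 kb from the start and the 5 downstream ones had peaks at 10 or 20 months but not at 2 months.

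Over the 14 regions with a peak at every age, all of them distal, the level was higher at 10 than at 2 months in 13, with a median ratio of 2.17 (range 0.710 to 3.09). It was higher at 20 than at 2 months in 13, with a median of 2.36 (0.954 to 3.78). Over all 10598 such regions of the genome 93.5% and 95.8% were higher, close to 13 of 14. The intervals lay above 1 in 10 and in 13 of the 14 regions and in 58.1% and 65.8% of the regions of the genome, where the width of an interval depends on the number of reads. The medians over the genome were 1.95 and 2.08, and the intervals of 13 and 12 of the 14 regions held them. At 10 months 12 of 14 regions were at least 1.5-fold above 2 months, as were 73.8% of the regions of the genome. At 20 months 13 of 14 were, as were 80.6% of the regions of the genome. Between 20 and 10 months the median ratio was 1.18 (0.784 to 1.40), 9 of 14 were higher where 63.0% of the genome were, 0 of 14 reached 1.5-fold where 3.43% of the genome did, and all 14 intervals included 1. On the RPM scale, the median ratio of 20 to 10 months was 0.949, and 5 of 14 were higher, so the direction between the older ages depends on the scale.

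The per-gene medians of the ratio to 2 months were close to each other. At 10 months they were 2.17 for *Mmp9* (6 regions), 2.07 for *Mmp11* (2 regions), 1.99 for *Mmp14* (4 regions), and 2.2 for *Mmp15* (2 regions). At 20 months they were 2.47, 2.17, 2.15, and 2.61 in the same order. Regions of 1 gene that lie side by side share chromatin and are not replicates.

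The ratio had lower values at promoter than at distal regions, a difference that was not tested. Distal means away from the starts of the 84 ECM genes, and whether such regions hold starts of other genes was not tested. The 3 promoter regions with a peak at 2 and 20 months had a median ratio of 1.19 (1.06 to 1.46) and the 15 distal regions 2.36. Over the 84 ECM genes the 30 promoter regions had a median of 1.66 (quartiles 1.39 to 2.1) and the 134 distal regions 2.17 (1.68 to 2.52). The 3 MMP promoter regions had no 10-month peak, unlike the regions with a peak at every age. The background under the 3 promoter summits was 1.00 times the genome mean at 2 months for each gene, and 4.37 for *Mmp11*, 3.24 for *Mmp14*, and 4.81 for *Mmp15* at 20 months, and its part in these values was not tested.

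**Figure D4:**
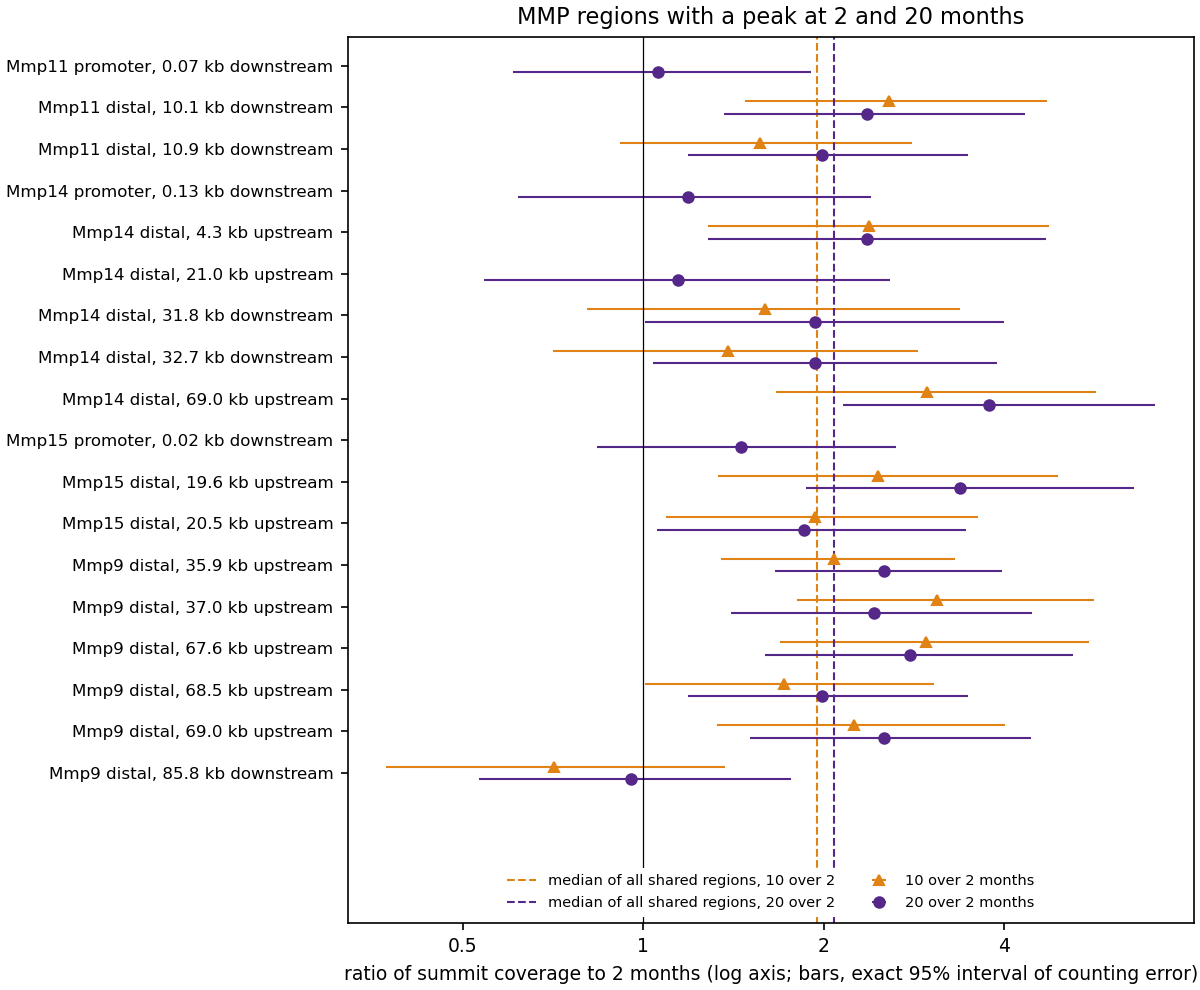
Ratio of summit coverage to 2 months (log axis) for the 18 regions of the MMP genes with a peak at 2 and 20 months, as triangles for 10 months and circles for 20 months, with bars for the exact 95% interval of counting error; dashed lines are the medians over all 10598 regions with a peak at every age. The *Mmp9* region 85.8 kb downstream (0.710 and 0.954) lies left of 1, and *Mmp14* 69.0 kb upstream (3.78) is farthest to the right.

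Of the 59 regions, 14 had a peak at every age, 18 at 10 and 20 months, 16 at 20 months alone, 4 at 10 months alone, 3 at 2 months alone, and 4 at 2 and 20 months, with 0 at 2 and 10 months. The first 6 classes are 23.7%, 30.5%, 27.1%, 6.78%, 5.08%, and 6.78% of the regions. Over the 52684 regions of the genome the shares were 20.1%, 33.8%, 24.6%, 10.4%, 8.12%, and 2.52%, and that of the class at 2 and 10 months 0.404%. *Mmp9* held 6 of the 14 regions with a peak at every age, and *Mmp11* 8 of the 16 with a peak at 20 months alone. These 8 had levels from 5.59 to 17.6, and the highest of the 16 was the *Mmp9* region 35.4 kb upstream, with 60 reads and a level of 24.

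The 38 regions without a 2-month peak were lower than the shared ones. At 20 months, 34 of them had a level, with a median of 13.6 (5.59 to 28.8), against a median of 30.0 (14.4 to 53.9) for the 14 regions with a peak at every age. Over the genome the medians were 11.6 and 24.4. Regions with a peak at every age had to be called in every list, a choice that by itself favors higher levels. The lowest summit called at 2 months was 6.34 times the genome mean, and 33 of the 34 regions stood at or above that at 20 months, as did 92.2% of the 30780 such regions of the genome. After their level was divided by the genome-wide median ratio of 20 to 2 months, 19 of the 34 (55.9%) still did, as did 38.7% of those of the genome. The difference between these shares was not tested.

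The 3 regions with a peak at 2 months alone were low. *Mmp11* had 1 such region 30.7 kb after the start (chr10:75364431-75364595, 11 reads, level 8.72) and another 98.6 kb after it (chr10:75296529-75296689, 14 reads, level 11.1). *Mmp9* had the other, 74.1 kb upstream (chr2:164699268-164699571, 15 reads, level 11.9). Each was compared with the lowest summit that the older lists called over a background within 10% of that of the nearest peak. All 3 levels lay below that summit at both ages, that is below every level listed there over such a background. For the 4 regions with peaks at 2 and 20 but not 10 months, the higher of the levels was above the lowest such summit at 10 months.

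Other genes of the same system gave a mixed picture. The 7 other MMP genes had 3, 7, and 7 distal peaks in order of age and no promoter peak. *Mmp13*, a collagenase, had the most of them at 20 months, with 2, 3, and 3 over the ages, and *Mmp1a*, *Mmp3*, *Mmp10*, and *Mmp12* had none at any age. More distal peaks at 20 than at 2 months were found for 3 of these 7 genes, and for 67.9% of all 84 ECM genes.

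The TIMP genes, which encode the inhibitors, had 16, 18, and 29 distal peaks. *Timp1* had 0, 4, and 9, *Timp2* 11, 10, and 11, and *Timp3* 5, 4, and 9. *Timp2*, whose product takes part in the activation of MMP2, had the same number at 2 and 20 months. The 4 ADAMTS genes had 2, 17, and 17 distal peaks. *Adamts2*, a procollagen N-proteinase, had 0, 9, and 7, *Adamts8* 2, 7, and 7, and the aggrecanases *Adamts1* and *Adamts5* 0, 1, and 2 and 0, 0, and 1. Of the ADAMTS genes, 4 of 4 had more distal peaks at 20 than at 2 months, of the TIMP genes 2 of 3. Among all 84 ECM genes the share was 67.9%, and the difference of these short lists from it was not tested.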

How the data were processed

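H3K27ac ChIP-seq peak lists of 3 libraries were used, 1 per age. Per the labels, reads were aligned to mm9 with Bowtie2 and peaks called with MACS2 2.1.0. The Bowtie2 version is not given in the sources used here. The methods mention an IgG control for ChIP and input for public human data, but not whether a control library entered the calling of these 3 lists. For each peak the authors deposited its position, a score, a fold (the ratio of summit pileup to background, each plus 1), and a −log10 p and −log10 q. The score follows q and was not used further.

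Summit reads and background were solved from the deposited fold and −log10 p (tolerance 0.001), and 1 peak each at 10 and 20 months could not be solved. The step was tested on simulated data at 3 background levels and recovered at least 99.98% of 5000 peaks at each. The level is summit reads over the genome mean, the lowest background of the list. RPM, the alternative scale, used the mapped reads listed with the study, which match the depths implied by the files. Those depths follow from genome means of 1.26, 2.24, and 2.5 reads and fragment lengths of 148, 222, and 178 bp. Overlap of at least 1 bp joined peaks into regions, represented by the highest summit. Intervals are exact (Clopper-Pearson for shares, conditional binomial for ratios), cover counting error only, and replace tests. Values were computed with scipy 1.17.1, pandas 2.3.3, and numpy 2.4.6 under Python 3.11.15 and plotted with matplotlib 3.10.9.

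The members and lists were chosen with earlier results of these data known. Named are all 5 members, genes of lists with at most 4 genes, and the genes with the most or fewest distal peaks at 20 months of the other list. Described in full are the highest region at 20 months, promoter regions, the region nearest to the start, and regions with a peak at 2 months alone; further regions were chosen after their values were seen. RefSeq GRCm38.p6 gave promoter sequences for 3 of the 5 genes and gene order. The alternatives tried were other distance limits, peak thresholds, list lengths, merging rules, and scaling.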

Additional observations from a re-analysis of the deposited data

How the results depend on the processing

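The counts depended on the settings. Of the distal peaks, at 2 months the 19 became 12 with an outer limit of 50 kb, when 50% of each list was kept by q, and with peaks within 1 kb merged. At 10 months the 34 became 17 with the 50 kb limit, 20 with 50% of each list, and 20 with lists of equal length. At 20 months the 46 became 23, 24, and 22 under the same settings. The number of genes with a promoter peak at 10 months went from 2 to 1 within 1 kb, and to 0 with 50% of each list or equal lists, and at 20 months from 4 to 1 with equal lists, where the 2-month count stayed at 3. Within 5 kb the 10-month count was 3, the same as at 2 months, and the 20-month count stayed at 4. In RPM, the median ratio was 3.25 for 10 over 2 months and 2.84 for 20 over 2 months, and that of 20 over 10 months reversed to 0.949. With peaks extended by 500 bp, the median of 20 over 2 months was 1.99 over 11 regions. The causes were not tested. The number of genes with a distal peak stayed within 1.5 times under each setting run. Of 90 counts for single genes under alternatives, 64 stayed within 1.5 times and 26 moved to lower numbers. Apart from counting a peak for every ECM gene, the alternatives for these single-gene counts could lower a count or leave it, but not raise it. Some of the 64 could not fall, such as those of *Mmp2* at 2 and 20 months, where it had no distal peak. The list of equal length at 2 months is the full 2-month list. Promoter regions alone gave no ratio, since the 14 shared regions are distal.

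No paired analysis was possible because each age has 1 library, and for the same reason no library was left out. Library, depth, background, and age cannot be told apart, and the q by which lists were shortened rests on a background that differed between lists.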
